A study of Mus musculus with 2 samples.

Results

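The genes described here encode the machinery through which secreted and membrane proteins enter the endoplasmic reticulum (ER), fold there and leave for the Golgi. The set held 50 genes, chosen by name from the 24323 named genes on the array, and it was divided by role into protein targeting and translocation, cleavage of the signal peptide, folding, transcription factors that adjust ER capacity, and transport between ER and Golgi. Messenger RNA was compared between tooth and skin of newborn mice, with 1 one-colour Agilent array for each tissue. Both groups were wild-type and untreated as far as the labels say, were labelled P0 (postnatal day 0) and were hybridised on the same slide with Cy3, and the methods name C57BL/6J as the wild-type strain. The methods describe the tooth samples as tooth germs and give an age 1 day older than the labels. The number of animals behind each array is not stated, and each tissue was a mixture of cell types.

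A protein that carries a signal sequence is recognised by the signal recognition particle as it leaves the ribosome and is threaded through the Sec61 channel into the ER. Chaperones and disulfide isomerases then fold it, and coat protein complex II (COPII) packs it into vesicles bound for the Golgi, from which escaped ER residents are returned by KDEL receptors. Cells that secrete heavily, such as the ameloblasts and odontoblasts that lay down enamel and dentin matrix, are known for an extensive ER, and the unfolded protein response (UPR) raises the expression of many of these genes when unfolded protein accumulates.

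Levels are given as log2 intensity relative to the array's own 75th percentile, so a level of 0 is the 75th percentile intensity, and a difference is the skin level minus the tooth level, so a negative difference means higher in tooth. Since each tissue had a single array, the spread between animals could not be measured, no test was made, and none of the differences was checked in a replicate. The scatter among repeated spots of 1 probe gave a difference between arrays an SD of 0.12, and a difference within 0.23 (2 SD) of 0 or of the 2-fold line is not distinguished from it even on technical grounds. The gap between the differences of 2 genes carries the scatter of both, and its technical SD is given where such gaps are compared. Levels of different genes come from different probes and were not compared with each other, although marker levels were summed within each cell type.

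All 50 genes were well above background on both arrays. Of these, 47 were higher in tooth and 3 were higher in skin, where 52.4% of the 17409 named genes well above background on at least 1 array were higher in tooth. At least 2-fold higher in tooth were 24 of the 50 genes (48.0%), against 15.5% of the named genes, and 0 of 50 were at least 2-fold higher in skin, against 14.2%. The median difference of the set was -0.96 (quartiles -1.33 and -0.65, range -3.36 to 0.17), beside a median of -0.04 (quartiles -0.58 and 0.47) over the named genes. Most of the set thus lay to the same side, with 41 of the 50 genes at or below the lower quartile of the named genes. The 2-fold line ran through a dense stretch of values: 9 of the called genes and 6 of the others lay within 0.23 of it. Sec61b at -1.01 was the last gene inside it and Ssr4 at -0.98 the first outside.

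**Figure D1:**
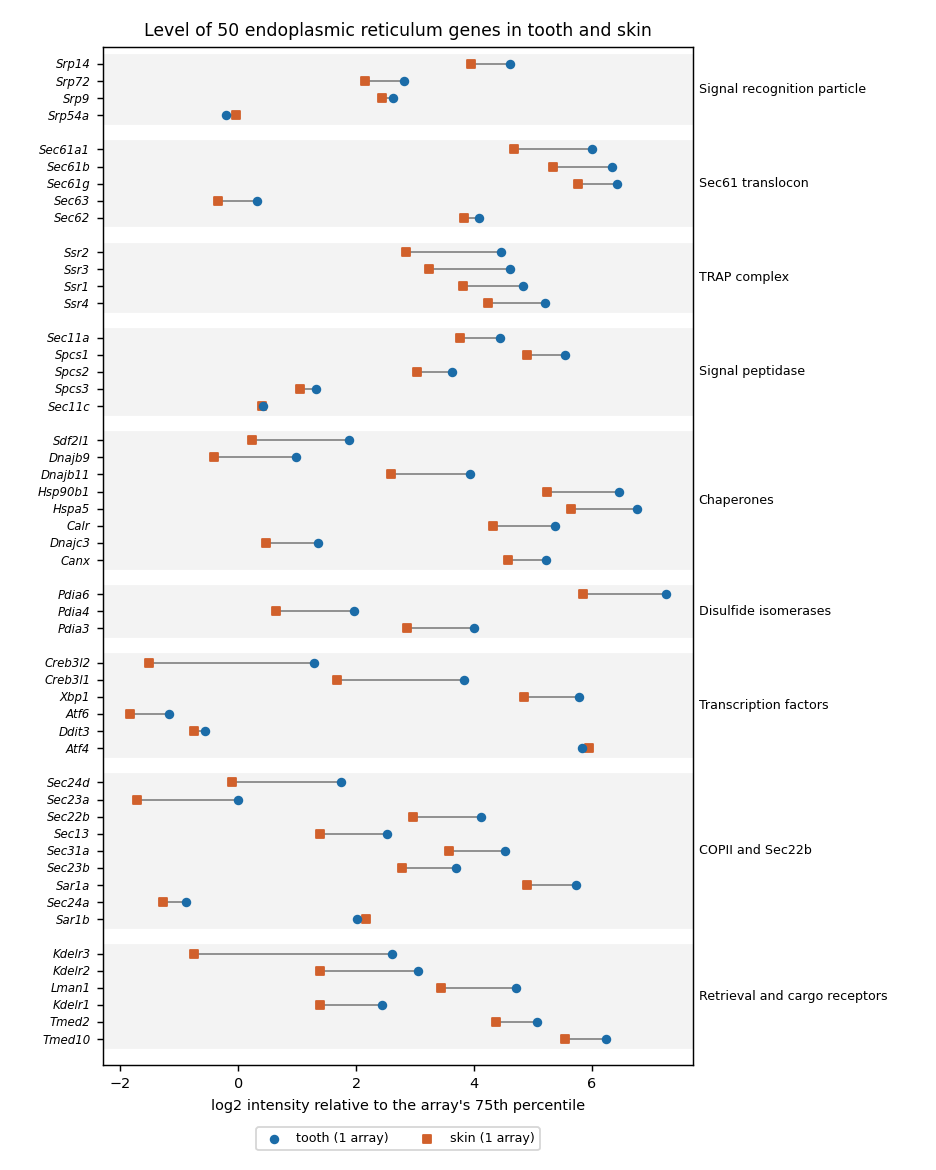
Level of each of the 50 genes on the tooth array (circles) and the skin array (squares), as log2 intensity relative to the array's 75th percentile, grouped by role. The tooth circle lies to the right of the skin square for 47 genes, and the widest separation is that of Kdelr3, at 2.61 in tooth against -0.75 in skin.

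The promoters of some of these genes contain short sequences that the UPR transcription factors are known to bind. They were searched because the set holds both such factors and their classical targets, over the window from 250 bases before to 50 bases after each annotated start (RefSeq, GRCm38.p6), on both strands. Of the 50 genes, 41 had a window. The 9 without one, which were not searched, were Atf6, Creb3l1, Kdelr2, Lman1, Sec11c, Sec61a1, Spcs3, Ssr2 and Tmed2. The ER stress element, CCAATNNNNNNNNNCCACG, was present in 0.119% of all 32851 windows and in those of 6 members, namely Hspa5, Hsp90b1, Pdia6, Calr, Canx and Dnajc3. A related element, ER stress element II, was in 0.0365% of windows and in that of Dnajb11 among the members. The UPR element, TGACGTGG, whose reverse complement contains the CCACG end of the ER stress element, was in 0.676% of windows and in those of 3 members, Kdelr3, Sec24d and Sec23a. In the main scaling these 3 rank 1, 4 and 5 of the 50 genes by difference toward tooth, while after normexp background correction they rank 1, 6 and 18. Creb3l1, Kdelr2 and Ssr2, at ranks 3, 6 and 8 in the main scaling, were among the genes not searched. The 3 promoters with the UPR element are printed below with 3 chaperone and isomerase promoters that hold the ER stress element. The letters that match the searched element are in capitals, and each run reads 5′ to 3′ on the strand of its gene. Kdelr3 lies at chr15:79516158-79516457 (plus strand), Sec24d at chr3:123267246-123267545 (plus), Sec23a at chr12:59011968-59012267 (minus), Hspa5 at chr2:34771840-34772139 (plus), Pdia6 at chr12:17266339-17266638 (plus) and Hsp90b1 at chr10:86705395-86705694 (minus).
Kdelr3: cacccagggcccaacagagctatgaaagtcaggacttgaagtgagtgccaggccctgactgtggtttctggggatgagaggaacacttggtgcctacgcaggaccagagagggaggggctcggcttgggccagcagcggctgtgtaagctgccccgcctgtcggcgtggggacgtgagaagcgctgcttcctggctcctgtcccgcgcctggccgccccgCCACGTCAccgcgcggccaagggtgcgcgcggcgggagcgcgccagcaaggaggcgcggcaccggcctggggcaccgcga
Sec24d: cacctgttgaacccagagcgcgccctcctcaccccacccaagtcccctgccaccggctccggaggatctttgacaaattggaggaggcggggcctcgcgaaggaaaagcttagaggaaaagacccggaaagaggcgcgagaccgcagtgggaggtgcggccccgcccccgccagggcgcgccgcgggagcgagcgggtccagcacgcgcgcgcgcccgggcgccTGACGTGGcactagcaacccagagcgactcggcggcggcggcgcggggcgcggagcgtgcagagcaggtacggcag
Sec23a: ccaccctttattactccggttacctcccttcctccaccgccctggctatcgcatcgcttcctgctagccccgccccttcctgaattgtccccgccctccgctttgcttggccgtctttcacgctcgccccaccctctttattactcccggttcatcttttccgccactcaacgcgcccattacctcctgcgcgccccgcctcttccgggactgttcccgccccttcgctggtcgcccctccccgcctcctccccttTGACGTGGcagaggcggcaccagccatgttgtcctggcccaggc
Hspa5: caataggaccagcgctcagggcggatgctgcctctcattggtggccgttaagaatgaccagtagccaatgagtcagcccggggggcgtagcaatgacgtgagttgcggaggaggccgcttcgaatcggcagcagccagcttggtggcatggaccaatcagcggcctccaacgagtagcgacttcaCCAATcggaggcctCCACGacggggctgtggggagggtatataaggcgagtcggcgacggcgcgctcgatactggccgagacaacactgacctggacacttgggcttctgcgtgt
Pdia6: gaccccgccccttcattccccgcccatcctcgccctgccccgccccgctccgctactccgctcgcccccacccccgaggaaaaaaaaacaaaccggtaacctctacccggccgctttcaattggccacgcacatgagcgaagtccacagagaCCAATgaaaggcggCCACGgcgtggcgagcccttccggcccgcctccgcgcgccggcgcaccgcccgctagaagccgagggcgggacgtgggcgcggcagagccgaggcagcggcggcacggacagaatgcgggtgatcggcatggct
Hsp90b1: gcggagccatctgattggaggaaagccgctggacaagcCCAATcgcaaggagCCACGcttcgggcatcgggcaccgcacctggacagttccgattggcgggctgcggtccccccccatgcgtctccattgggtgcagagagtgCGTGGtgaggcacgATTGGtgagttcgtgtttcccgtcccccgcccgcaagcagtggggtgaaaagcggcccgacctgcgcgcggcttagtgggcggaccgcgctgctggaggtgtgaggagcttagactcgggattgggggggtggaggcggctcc

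Position differed between the promoters. In Kdelr3 the UPR element began 30 bases before the annotated start, read on the opposite strand, and in Sec24d it began 26 bases before the start. Sec23a had it 6 bases after the start. The ER stress element lay 65 bases before the start in Hspa5 and 98 bases before it in Pdia6, while Hsp90b1 held 2 matches, the farther of them 212 bases before it. A match is a description of letters and not a measured binding site.

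The 3 genes with the UPR element had a median difference of -1.85, the 6 with the ER stress element had -1.09 (from -1.41 to -0.65), and the 32 with a window but neither of these had -0.86. The 32 include Dnajb11, which carries ER stress element II and differed by -1.34. At least 2-fold higher in tooth were 3, 4 and 12 of these genes. After normexp background correction the 3 with the UPR element differed by -3.06 (Kdelr3), -1.61 (Sec24d) and -1.17 (Sec23a). Outside the set, the 125 other measured genes with the UPR element had a median of -0.20. Of these, 29 (23.2%) were at least 2-fold higher in tooth and 14 (11.2%) in skin. Over the 12745 measured genes with a window the median was -0.07, and the shares were 15.3% and 13.3%. A part of the element in the differences was not tested. The 14 other measured genes with the ER stress element had a median of -0.28, with 3 at least 2-fold higher in each tissue.

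Retrieval and cargo receptors held the gene with the largest difference. Kdelr3, a receptor that returns proteins with a KDEL tail from the Golgi to the ER, had a level of 2.61 in tooth against -0.75 in skin, a difference of -3.36 (technical SD 0.15), or 10.3-fold. Only 2.08% of the named genes lay further toward tooth. Its probe lies at chr15:79357588-79357647 in mm9, the build of the array annotation. The other receptors of the same family differed less. Kdelr2 was at 3.04 in tooth against 1.38 in skin, a difference of -1.66, and Kdelr1 was at 2.44 and 1.39, a difference of -1.05 that a second Kdelr1 probe gave as -1.07. The gap between Kdelr3 and Kdelr2 was 1.70 and that between Kdelr3 and Kdelr1 was 2.31, each with a technical SD of 0.18, so the 3 receptors were separated by far more than spot scatter.

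Of the remaining transport receptors, Lman1, a lectin that carries glycoproteins such as coagulation factors out of the ER, was at 4.72 in tooth against 3.45 in skin, and its 2 probes gave differences of -1.27 and -2.32. The p24 family proteins Tmed2 and Tmed10, which take part in vesicle formation and cargo selection, were nearer to the skin level, with differences of -0.71 and -0.69. Second probes gave -0.22 for Tmed2 and -0.80 for Tmed10. All 6 genes of this role were higher in tooth (median -1.16), and 4 of them at least 2-fold, beside 52.4% and 15.5% of the named genes.

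COPII coat genes come in paralogs, which did not all differ alike. Sec24d, a cargo-binding subunit of the inner coat, had a level of 1.75 in tooth against -0.10 in skin (difference -1.85, probe at chr3:123068106-123068165 in mm9). Sec24a, its relative, was at -0.88 and -1.28, a difference of -0.40, and its 3 probes ran from -0.40 to 0.08. The gap between these subunits was 1.45 with a technical SD of 0.24. Sec23a, the partner of Sec24 in the inner coat and the gene whose loss causes a craniofacial bone disorder in people, was at -0.01 in tooth against -1.71 in skin (difference -1.70, probe at chr12:60060275-60060334 in mm9). Its paralog Sec23b was at 3.69 and 2.78, a difference of -0.90, which left a gap of 0.80 (technical SD 0.21). After normexp background correction Sec23a differed by -1.17 and Sec23b by -0.99, and the gap of 0.18 was within the scatter, so these paralogs are not reported as separated.

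The GTPases that start coat assembly differed in the same way. Sar1a was at 5.72 in tooth against 4.90 in skin, a difference of -0.82. Sar1b was at 2.01 and 2.16, a difference of 0.16 that turned to -0.09 under a median shift and -0.47 under a spike-in shift. The gap between them was 0.97 (technical SD 0.13). The outer coat genes Sec13 (2.52 in tooth against 1.38 in skin) and Sec31a (4.52 and 3.58) differed by -1.14 and -0.94, and Sec22b, a SNARE that helps vesicles fuse between ER and Golgi, by -1.15. In all, 8 of these 9 genes were higher in tooth and 4 at least 2-fold, beside 52.4% and 15.5% of the named genes.

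The transcription factors spanned almost the whole range of the set. Creb3l2, a membrane-bound factor known to induce Sec23a in cartilage, was at 1.28 in tooth against -1.51 in skin, a difference of -2.79 or 6.91-fold, against -2.12 or 4.35-fold after normexp background correction (probe at chr6:37281208-37281267 in mm9). Creb3l1, also called OASIS and known for driving type I collagen in osteoblasts, was at 3.82 and 1.68, a difference of -2.14 or 4.42-fold (chr2:91822506-91822565 in mm9). With normexp Creb3l1 was at -2.17, so the order of this pair turned and no order is given. The factors of the general UPR differed less than these. Xbp1, the target of the sensor IRE1 and a factor of secretory cells, was at 5.79 in tooth against 4.84 in skin (difference -0.95). Atf6, a sensor that is itself cleaved to a transcription factor, was at -1.17 and -1.84 (difference -0.67, or -0.34 after normexp background correction).

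Atf4 and Ddit3, the factors of the PERK branch of the UPR and of the integrated stress response, lay near 0. Ddit3, also called CHOP, was at -0.56 in tooth against -0.75 in skin, a difference of -0.19 that is within the technical scatter. Atf4 was at 5.83 in tooth against 5.95 in skin, and its 2 probes gave 0.12 and -0.07. The sign of Atf4 also turned under a median shift (-0.13), a spike-in shift (-0.51), quantile normalization (-0.06) and normexp background correction (-0.01), so no direction is given for it.

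The folding genes of the set were all higher in tooth, where 52.4% of the named genes were. Of 22 other folding genes, 21 were higher in tooth and 1, Ero1a, was higher in skin (0.78). Hspa5 (BiP), the main ER chaperone and the regulator of the UPR sensors, was at 6.77 in tooth against 5.64 in skin, a difference of -1.13 or 2.19-fold. Hsp90b1 (GRP94), its HSP90-class partner, was at 6.45 and 5.24 (difference -1.21). The lectin chaperones that bind newly made glycoproteins differed by -1.04 for soluble Calr (5.37 and 4.32) and -0.65 for membrane-bound Canx (5.22 and 4.57). Among chaperones, 6 of 8 were at least 2-fold higher in tooth, beside 15.5% of the named genes, and the median was -1.17.

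BiP works with J proteins and other cofactors, of which the set holds several. Sdf2l1, a component of a chaperone complex with Dnajb11, was at 1.88 in tooth against 0.23 in skin (difference -1.65), and Dnajb11 at 3.93 and 2.59 (difference -1.34), from its only probe above background. Dnajb9 was at 0.98 and -0.41, and its 2 probes gave -1.39 and -0.70. Dnajc3, which also inhibits the kinase PERK, was at 1.36 and 0.47 (difference -0.89).

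All 3 protein disulfide isomerases of the set, enzymes that make and rearrange disulfide bonds, were at least 2-fold higher in tooth. Their median was -1.33, and 15.5% of the named genes were at least 2-fold higher in tooth. Pdia6 was at 7.25 in tooth against 5.84 in skin, and its 2 probes gave -1.41 and -1.83. Pdia4 was at 1.97 and 0.64 (difference -1.33), and Pdia3, which works with the lectin chaperones, at 3.99 and 2.86 (difference -1.14). Of further members of this enzyme family, P4hb differed by -1.30, Pdia5 by -0.95 and Erp44 by -0.46. Txndc5 differed by -1.54, Txndc11 by -0.85 and Dnajc10 by -0.705. Erp29 differed by -0.12, which is within the technical scatter, and its second probe gave -0.27.

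The translocon showed unequal differences among its parts. Sec61a1, the channel-forming subunit, was at 5.99 in tooth against 4.67 in skin (difference -1.32). The small subunits Sec61b (6.35 and 5.34) and Sec61g (6.43 and 5.75) differed by -1.01 and -0.67. Other probes of Sec61b gave -1.09 and -0.73. Sec63 and Sec62, which help post-translational translocation, differed by -0.65 and -0.26, although a second probe of Sec62 gave -0.82. For Sec63 the array carried 10 spots of 1 probe, which ran from 0.15 to 0.42 in tooth and from -0.62 to -0.20 in skin and did not overlap.

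The TRAP complex, which sits beside the channel and helps some proteins pass it, had a median of -1.20. In the probes used, 3 of its 4 genes were at least 2-fold higher in tooth, beside 15.5% of the named genes. Ssr2 was at 4.46 in tooth against 2.85 in skin (difference -1.61), and Ssr3 at 4.62 and 3.23 (difference -1.39). A second probe of Ssr3 gave -0.94, which is short of 2-fold. Ssr1 differed by -1.02 in the probe used and by -0.88 and -0.14 in its other 2 probes. Ssr4 was at 5.20 and 4.23 (difference -0.98).

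Signal peptidase and the signal recognition particle lay nearer to the level of all genes, with no gene at least 2-fold different. Among signal peptidase genes the median was -0.59. Sec11a, a catalytic subunit, was at 4.43 in tooth against 3.75 in skin (difference -0.68), while the alternative catalytic subunit Sec11c was at 0.42 and 0.40 (difference -0.02), a gap of 0.66 (technical SD 0.13). Spcs1 differed by -0.64 and Spcs3 by -0.27. Spcs2 had 2 probes of opposite sign, -0.59 and 0.71, both well above background, so its direction depended on the probe.

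For the signal recognition particle the median was -0.42. Srp14 was measured in 10 spots, which ran from 4.55 to 4.66 in tooth and from 3.79 to 4.01 in skin and did not overlap, a difference of -0.67. Srp72 differed by -0.65 and Srp9 by -0.19, while second probes gave -0.41 for Srp72 and -0.66 for Srp9. Srp54a, the subunit that binds the signal sequence, differed by 0.17 in the probe used and -0.42 in another, and close copies of this gene exist in the mouse genome, so its signal is uncertain.

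**Figure D2:**
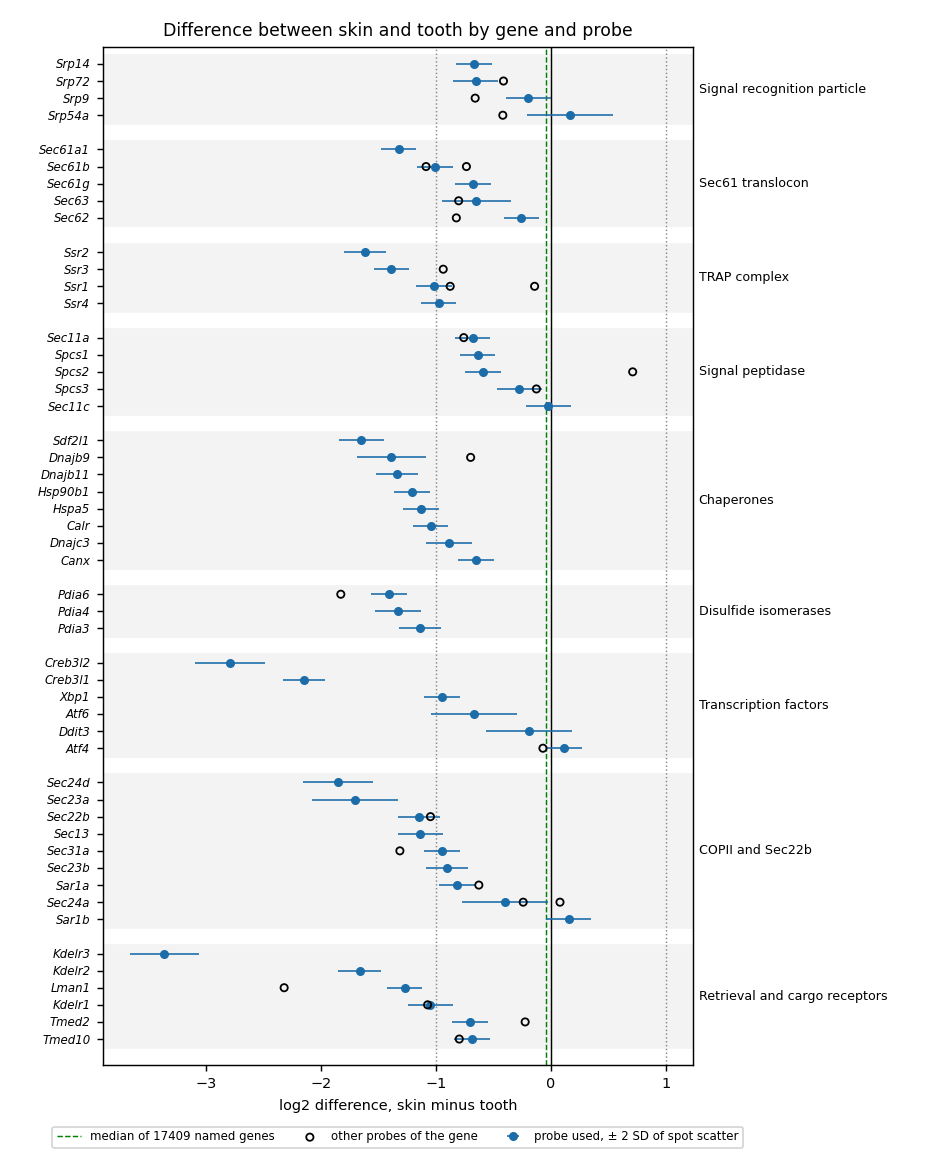
Difference between skin and tooth for each of the 50 genes (log2, negative means higher in tooth), with bars of 2 SD of spot scatter, open circles for other probes of the same gene, dotted lines at 2-fold and a dashed line at the median of the named genes. Kdelr3, Creb3l2 and Creb3l1 stand farthest to the left, and Spcs2, Srp54a, Sec24a and Atf4 have probes on both sides of 0.

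Probes of the same gene gave a check of these values within each array. The 50 genes had 76 probes, of which 75 were well above background on both arrays, and 70 of these were higher in tooth and 5 in skin. At least 2-fold higher in tooth were 30 probes, and 0 were in skin. These counts include the probe that stood for each gene, so they are not a separate check, and no share over all probes of the array stands beside them. Among the probes not used for a gene, those past 2-fold belonged to Kdelr1, Lman1, Pdia6, Sec22b, Sec31a and Sec61b. Of 22 genes with more than 1 measured probe, 18 had the same sign in all, and the median gap between a gene's probes was 0.39. The exceptions were Spcs2, Srp54a, Sec24a and Atf4. Probe disagreement was therefore larger than spot scatter, and small differences between neighbouring genes have no firm order. A single probe stood for 27 of the 50 genes, so this check does not cover them. Among these were Kdelr3, Creb3l2, Creb3l1, Sec24d, Sec23a, Sar1b and Sec11c. Ordered by difference, 2 of the 49 neighbouring pairs were farther apart than 2 technical SDs of their gap, namely Kdelr3 and Creb3l2 (0.57) and Creb3l2 and Creb3l1 (0.64). With normexp the first gap was 0.94 and the second -0.05.

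For comparison, lists of ribosomal and mitochondrial genes were examined. The 77 cytosolic ribosomal protein genes, whose products make the proteins that enter the ER, had a median difference of 0.32 (from 0.01 to 0.58), and 77 of 77 were higher in skin, although the median of the list was -0.03 after quantile normalization and -0.30 under a spike-in shift. The 76 oxidative phosphorylation genes, which encode the respiratory chain, had a median of -0.17. Of them, 59 (77.6%) were higher in tooth, beside 52.4% of the named genes. In neither list was any gene at least 2-fold different, where 15.5% of the named genes were at least 2-fold higher in tooth and 14.2% in skin.

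**Figure D3:**
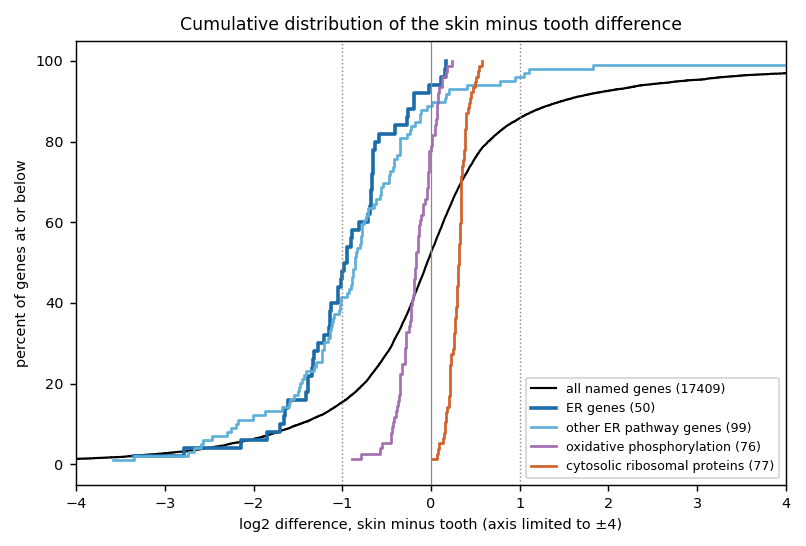
Cumulative percent of genes at or below each skin minus tooth difference (log2) for the 17409 named genes, the 50 ER genes, 99 other genes of the pathway, 76 oxidative phosphorylation genes and 77 cytosolic ribosomal protein genes, with dotted lines at 2-fold. The curves of the ER genes and the other pathway genes lie left of the curve of the named genes over most of the range, and that of the ribosomal protein genes rises to the right of 0.

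A list of 100 further genes of the pathway was also described, of which 99 gave a signal well above background in 1 or both tissues. The list does not cover the whole pathway and was chosen with earlier results of these data known. Its counts are therefore no separate check of the set. Their median was -0.86, with 88 higher in tooth and 11 in skin, where 52.4% of the named genes were higher in tooth. At least 2-fold higher in tooth were 41 (41.4%) and in skin 4 (4.04%), beside 15.5% and 14.2% of the named genes. By role, 9 of 12 genes of N-glycosylation (median -1.17) and 12 of 22 folding genes (median -1.10) were at least 2-fold higher in tooth, 3 of 7 targeting genes (median -0.89), 7 of 22 retrieval and cargo genes (median -0.82), 3 of 10 degradation genes (median -0.65) and 3 of 12 COPII genes (median -0.46). The COPII count includes Sec22a, which was below background in skin and is bounded at only 1.11-fold.

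Of the 5 widest differences toward tooth among these genes, 4 were in peptidyl-prolyl isomerases of the FKBP family that reside in the ER, and the other was in Sec16b. Fkbp10, which is needed for collagen cross-linking and is mutated in brittle bone disease, was at 6.41 in tooth against 2.82 in skin, a difference of -3.59. Fkbp7 was at 3.26 and -0.09 (difference -3.35), Fkbp14 at 4.01 and 1.34 (difference -2.67) and Fkbp9 at 4.70 and 2.11 (difference -2.59). Serpinh1, the collagen chaperone HSP47, was at 6.79 and 4.49 (difference -2.30). Sec16b, which organises ER exit sites, was at -0.18 and -2.92 (difference -2.74), from 1 of its 2 probes, the other being below background on both arrays.

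Of the 14 stress response genes, 4 (28.6%) were at least 2-fold higher in tooth and 3 (21.4%) in skin, beside 15.5% and 14.2% of the named genes, and the median was -0.14. The kinase and nuclease sensors Eif2ak3 (PERK) and Ern1 (IRE1) had differences of -1.59 and -1.49. Genes that Atf4 is known to induce lay on both sides. Trib3, a pseudokinase, was at -1.60 in tooth against 2.51 in skin (difference 4.10), Atf3 at -1.19 and -0.08 (difference 1.11) and Chac1, a glutathione-degrading enzyme, at 1.84 and 2.89 (difference 1.05), while Ppp1r15a, which reverses the PERK signal, differed by 0.95. Asns, the asparagine synthetase that Atf4 also induces, was at 4.61 and 3.80 (difference -0.80), and Herpud1, a degradation factor induced by ER stress, differed by 0.21. Of the remaining genes, Tmed5 had a difference of 1.82 in the probe used, and its 7 probes disagreed in sign. The count of these other genes at least 2-fold higher in skin was 2 in place of 4 under a median shift, a spike-in shift or normexp, with Atf3 (0.86, 0.49 and 0.89) and Chac1 (0.80, 0.43 and 0.93) no longer past 2-fold.

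**Figure D4:**
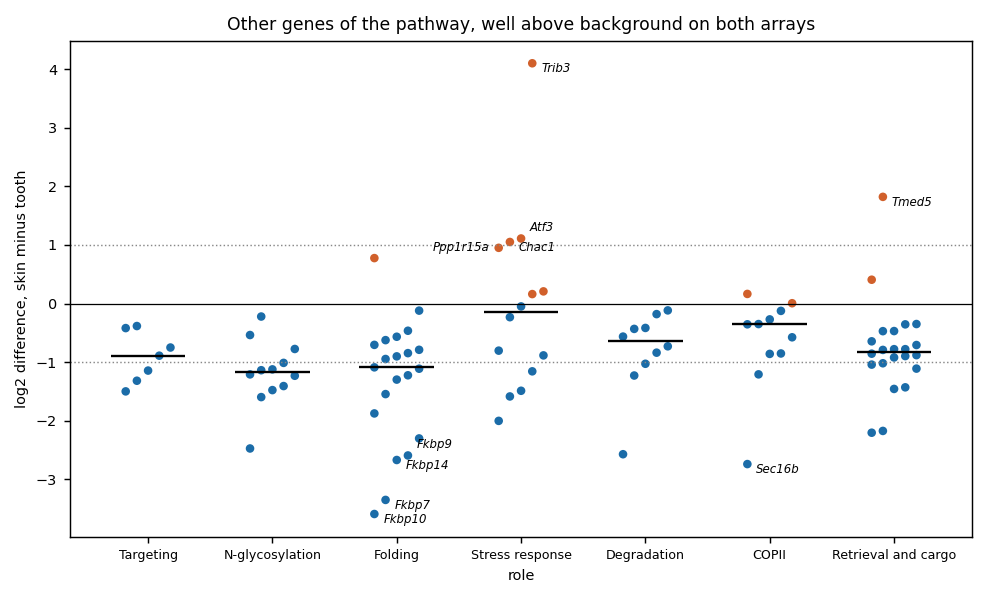
Difference between skin and tooth (log2) for the other pathway genes well above background on both arrays, by role, with each role's median over the plotted genes as a bar and dotted lines at 2-fold. Of the 5 largest values toward tooth, 4 are FKBP genes of the folding group and 1 is Sec16b of the COPII group, and Trib3 in the stress response group is the highest value toward skin.

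Cell type markers separated the tissues to very different degrees. A summed level rests mainly on the brightest probes of its list. In tooth these were Amelx (10.27) and Ambn (9.50) for ameloblasts, and Col1a2 (9.51) and Col1a1 (8.85) for fibroblasts. The 4 ameloblast markers were above background in tooth only, with a summed linear level of 2151 times the 75th percentile in tooth and at most 0.30 in skin, where a probe below background counts at the higher of its value and the lowest signal well above background. The 6 odontoblast and osteoblast markers, 4 of them below background in skin, summed to 351 and at most 0.84. The 6 fibroblast markers, many of them matrix genes that tooth mesenchyme also expresses, summed to 1487 in tooth and 324 in skin, with a difference of -3.17 for Col1a1, -0.93 for Dcn and 0.13 for Col3a1. Sums were higher in skin for 6 epidermal genes (528 in tooth and 4783 in skin), 6 muscle genes (at most 8.80 and 88.3), 5 fat genes (at most 1.84 and 17.9) and 5 melanocyte genes (at most 2.30 and 173). Of the epidermal genes, Krt5 and Krt14 were also bright in tooth (8.82 and 6.11) and differed by only 0.94 and 1.19. Krt1, Krt10, Flg and Lor differed by 8.39 (Krt10) to 12.89 (Flg). The 4 measured red cell genes summed to 146 and 70.7, and of the 4 plasma cell markers Sdc1 alone was above background, at 3.43 and 3.62. The tooth, fibroblast and skin markers differed between the same 2 arrays as the ER genes, and their part in the result was not tested. In bulk tissue, fewer cells of a type and less RNA per cell cannot be told apart.

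The amount of the shift depended on how the arrays were scaled. Centring each array on its median gave the set a median of -1.21 (named genes -0.29), and scaling on 8 spike-in controls gave -1.58 (named genes -0.67), with 42 of the 50 genes at least 2-fold higher in tooth against 32.4% of the named genes. Over all named genes, the main scaling gave 2691 genes at least 2-fold higher in tooth and 2466 in skin, the median shift 3500 and 2020, and the spike-in shift 5639 and 1573. The median and spike-in shifts move every gene alike, so they leave the set's median minus that of the named genes at -0.92 by construction. With quantile normalization, which does not, it was -0.94, and with normexp -1.09.

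**Figure D5:**
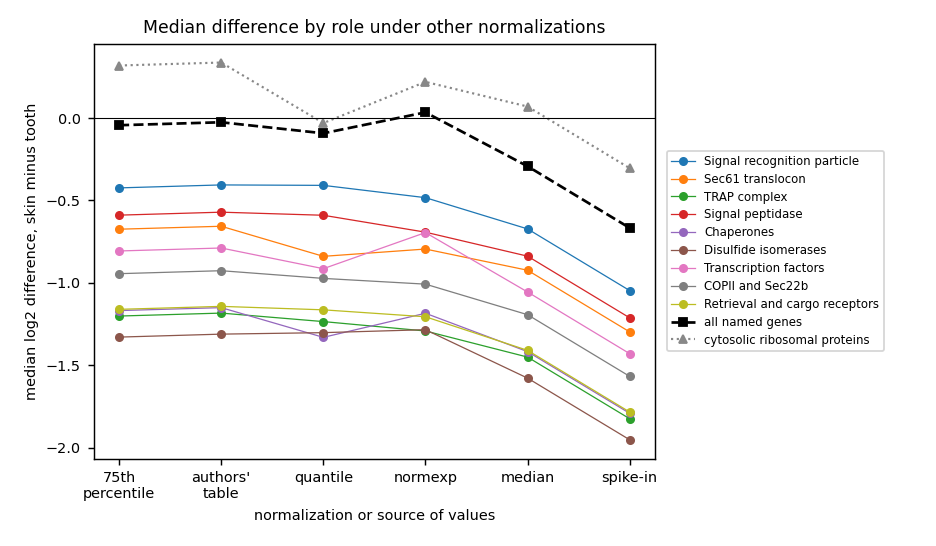
Median skin minus tooth difference (log2) of each role under the main scaling and 5 other normalizations or sources, with the named genes (squares) and cytosolic ribosomal protein genes (triangles); the settings have no order and lines only join values of 1 list. Each of the roles lies below the named genes under all 6, while the ribosomal protein genes change side of 0.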

How the data were processed

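Total RNA was labelled with Cy3 and hybridised to 60-mer arrays. The deposited intensity values came from Agilent Feature Extraction 10.7.3.1, in which, per the file headers, background had been subtracted. The authors also deposited a table whose values are a ratio of this intensity to 1 factor per array (430.7 on the tooth array and 274.5 on that of skin, linear, not centred; column medians 0.081 and 0.0989), used as an alternative.

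Outlier spots were removed, spots of a probe were averaged as log2, and each array's 75th percentile over non-control probes (intensity 428 in tooth and 276 in skin) was subtracted. A probe counted as well above background where over 50% of its spots were so called, as 56.7% and 52.5% of 55675 probes were. No spot was saturated. The brightest probe stood for a gene, and genes well above background on at least 1 array entered. For a gene above background on 1 array the difference is only a bound, but the counts and medians used its measured value. With bounds in place, 13.3% of the named genes were at least 2-fold higher in tooth and 14.0% in skin. Of the other pathway genes, 40 were then at least 2-fold higher in tooth. The array number limits the precision. Spot scatter came from probes with at least 8 spots (288 in tooth, 273 in skin).

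All 50 members were named, with marker lists and with other pathway genes among the 5 largest differences in each direction or past 2-fold. Not every gene past 2-fold is named. Pdia5, Erp44, Erp29, Txndc11, Dnajc10, Ero1a, Asns and Herpud1 were named outside this rule. The members and lists were chosen with earlier results of these data known. The 10 alternatives covered scaling, background (normexp, offset 50), probes and filters. Of 33184 named probes, 27235 (82.1%) matched RefSeq. Python 3.11.15, pandas 2.3.3, numpy 2.4.6, R 4.3.3 and limma 3.58.1 were used, and the steps were tested on simulated data.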

Additional observations from a re-analysis of the deposited data

How the results depend on the processing

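Of 10 alternatives, a median shift moved the median difference of the 50 ER genes to -1.21 and that of the other pathway genes to -1.10, and a spike-in shift moved them to -1.58 and -1.48, with 42 ER genes at least 2-fold higher in tooth in place of 24. Both shifts move all genes alike, by construction. Under the other alternatives these results changed by less than the spot scatter or by less than 1.5 times. The count at least 2-fold higher in skin was 0 under all 10, and 46 to 50 of the 50 genes were higher in tooth. The set's median minus that of the named genes ran from -0.90 (mean of all probes) to -1.14 (no filter on dim probes). Signs turned for Sec11c (0.02 with the 75th percentile over detected probes), for Spcs2 (0.06) and Srp54a (-0.12) with the mean of all probes, and for Srp54a under the median shift (-0.08), spike-in shift (-0.45) and normexp (-0.31). No paired analysis was possible because each tissue had 1 array. With 1 array per tissue, differences cannot be separated from variation between animals, dissections or hybridisations.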
